A study of Mus musculus with 36 samples.

Results

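The collagen genes are the genes whose symbol in the deposited annotation is Col, a number, the letter a and a number, and which stand in the deposited count table. The rule found 44 genes among the 24344 of the table, and 43 of them passed the filter on low counts that left 20108 genes for testing. Col10a1, the collagen of growing cartilage, was the member left out, at 0 to 0.263 CPM (counts in each 1000000 of a library). RNA came from 36 samples of the mouse dorsal vagal complex, a brainstem region made up of the solitary tract nucleus together with the motor nucleus from which vagal fibers leave. The mice carried the WT genotype and belonged to 3 inbred strains: C57BL/6J; CAST/EiJ, which descends from wild mice; and NZO/HlLtJ, which readily becomes obese and diabetic. Feeding began at 6 weeks of age and tissue was taken at 15 weeks. The control feed had 10% fat, the high fat, high sugar feed (HFHS) had 44% fat, and fiber was in both. With 2 sexes this made 12 groups, each of 3 libraries whose numbers follow accession order. Library totals ran from 22.03 to 49.61 M counts (M, 1000000). The series asks how genotype and diet interact in models of type 2 diabetes. The labels do not say whether each library is a separate mouse, so p-values measure the spread between these libraries.

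Collagens are triple helices of 3 chains, each chain the product of a Col gene. Fibrillar collagens form the cords of connective tissue, type IV forms the sheet of basement membranes, and the fibril-associated collagens (FACITs) sit on fibrils. In the brain, fibrillar collagen is made mainly by fibroblasts of the meninges and around larger vessels, while endothelial cells and pericytes make the basement membrane of capillaries. The members fell into 11 fibrillar genes, 8 of basement membranes (Col4a1 to Col4a6, Col15a1 and Col18a1), 9 FACITs and 4 transmembrane collagens. The remaining 12 make beaded filaments (type VI) or short-chain and other collagens (types VII, VIII, X, XXVI and XXVIII).

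Markers of the labelled tissue were found in every library: Chat, the acetylcholine enzyme of motor neurons, was at 6.7 to 19.4 CPM, and Slc18a3, the vesicular acetylcholine transporter, at 6.35 to 32.6 CPM. The libraries differed in what else they held. The summed Hox genes, which mark the hindbrain and spinal cord, were at 1.14 CPM in CAST/EiJ male control 1, 1.91 in CAST/EiJ male control 3 and 2.75 in NZO/HlLtJ male control 3. The other libraries had 20.3 to 361 CPM, so these 3 stand apart, and several results are given with and without them. In CAST/EiJ the Hox sum was 233 to 333 CPM on HFHS and 61.5 to 244 CPM in the other control libraries. The diets thus differed in Hox level there beyond these libraries, with overlap. What part this has in the diet results was not tested. Summed choroid plexus markers ran from 24.2 to 3110 CPM, cerebellar neuron markers from 82.8 to 2210 CPM, and pituitary markers reached 17500 CPM in NZO/HlLtJ male control 1 against a median of 4.52. Meningeal fibroblast markers, all 28 of them tested, summed to 226 to 669 CPM. The 20 endothelial markers summed to 430 to 703 CPM, and the 16 mural markers (pericytes and smooth muscle) to 215 to 489 CPM.

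All collagen genes together took 685 to 897 CPM of a library. The mean was 745 ± 55.2 CPM (SD, n = 6) in C57BL/6J on the control diet and 787 ± 70.4 on HFHS. In CAST/EiJ it was 805 ± 37.0 and 783 ± 65.1, and in NZO/HlLtJ 797 ± 33.8 and 806 ± 47.2. These ranges overlapped in every strain. Fibrillar and basement membrane genes held most of the sum. On the control diet the fibrillar sum was 274 ± 28.0 CPM in C57BL/6J, 253 ± 23.1 in CAST/EiJ and 257 ± 30.0 in NZO/HlLtJ. The basement membrane sum was 212 ± 16.8, 271 ± 33.2 and 252 ± 22 CPM in the same order. Its highest control values in CAST/EiJ, 320 and 300 CPM, were those of male control 1 and 3, which had few Hox reads. The other CAST/EiJ control libraries lay between 242 and 273 CPM. In NZO/HlLtJ the highest control value, 277 CPM, was that of male control 3, which also had few Hox reads. On HFHS the basement membrane sum was 215 ± 14.8, 219 ± 22.3 and 230 ± 13.1 CPM in C57BL/6J, CAST/EiJ and NZO/HlLtJ.

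Levels of different genes were compared per kb of exon. The highest were the basement membrane chains Col4a2, at 14 ± 2.07 CPM per kb (SD, n = 36), and Col4a1, at 9.18 ± 1.31. The next were Col11a2 (7.94 ± 1.68), a minor fibrillar chain, Col16a1 (7.48 ± 0.926), a FACIT, and Col9a3 (6.04 ± 2.74), a chain of the FACIT type IX. Col4a2 stood above Col4a1 by more than the SD of either, while each later neighbour in this order lay within the larger SD of the pair. The main fibrillar chains were lower, with Col1a2 at 2.99 ± 0.976, Col1a1 at 2.71 ± 0.636 and Col3a1 at 1.18 ± 0.544 CPM per kb. Col25a1, a transmembrane collagen of neurons, was at 3.57 ± 1.01 CPM per kb. The lowest tested members were Col6a4 (0.141 ± 0.109) and Col17a1 (0.182 ± 0.158), and the cartilage collagen Col2a1 was at 0.703 ± 0.369 CPM per kb.

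**Figure D1:**
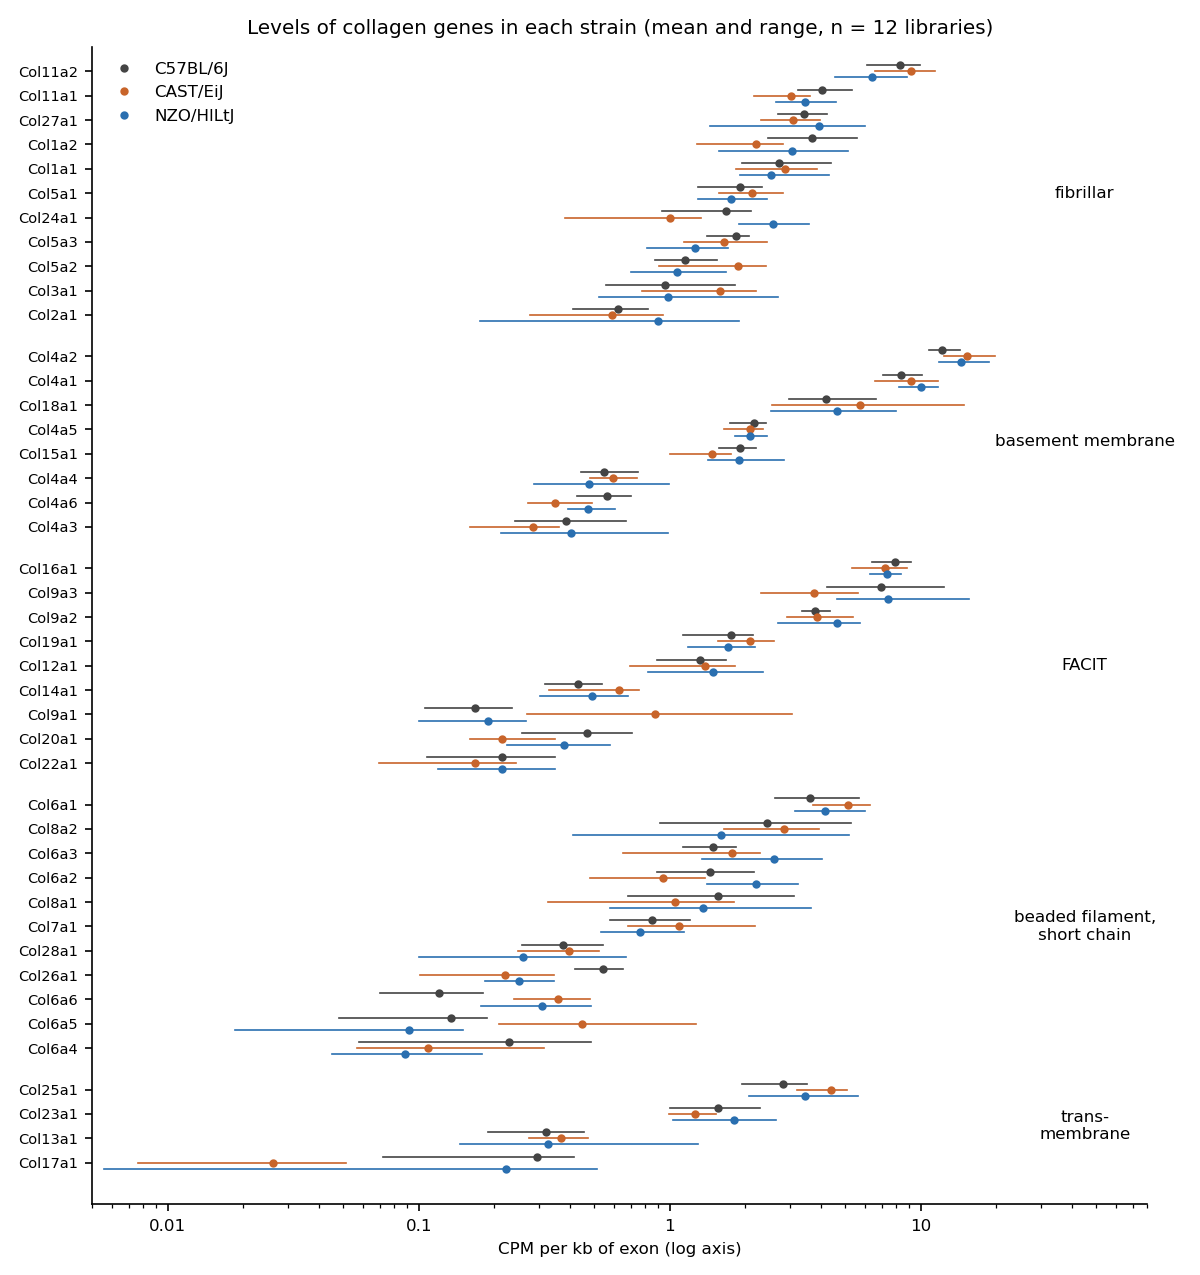
Level of the 43 tested collagen genes in CPM per kb of exon, on a log axis, by class. Points are means and lines run from the lowest to the highest of 12 libraries of a strain; Col4a2 and Col4a1 are highest, and CAST/EiJ stands apart from C57BL/6J in Col17a1, Col9a1, Col6a5, Col6a6 and Col26a1.

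Few collagen genes were called for diet in the test across all genes (edgeR's quasi-likelihood test, Benjamini-Hochberg adjusted p under 0.05). HFHS minus control in C57BL/6J called 0 of the 43 members, where 0.0% of all genes were called. With 1 member at an unadjusted p under 0.05, DESeq2 and limma also called 0. In NZO/HlLtJ 0 members were called against 0.0547% of all genes, 2 had an unadjusted p under 0.05, and DESeq2 and limma called 0. In CAST/EiJ 1 member was called, against 0.343% of all genes, and 10 had an unadjusted p under 0.05. Of the 20108 genes tested, 547, 3758 and 2050 had an unadjusted p under 0.05 in C57BL/6J, CAST/EiJ and NZO/HlLtJ. The median log2 change over the members was 0.06, 0.00 and 0.05 in C57BL/6J, CAST/EiJ and NZO/HlLtJ, beside 0.002, -0.001 and 0.0 over all genes tested. The interaction of strain and diet called 0 members and 0.0% of all genes. There, 4 members had an unadjusted p under 0.05, beside 1772 of the 20108 genes tested, limma called 0 members and DESeq2 called 1.

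Col9a1 was the member called in CAST/EiJ. It encodes a chain of type IX collagen, a FACIT best known from cartilage and the vitreous of the eye. Because it was the member called for diet, the 250 bases before the first of its 2 starts in RefSeq (GRCm38.p6, chr1:24177360-24177609, + strand) are shown; none of the 3 motifs searched below occurs in them, while the region of the other start, not shown, holds 1 CCAAT box.
Col9a1: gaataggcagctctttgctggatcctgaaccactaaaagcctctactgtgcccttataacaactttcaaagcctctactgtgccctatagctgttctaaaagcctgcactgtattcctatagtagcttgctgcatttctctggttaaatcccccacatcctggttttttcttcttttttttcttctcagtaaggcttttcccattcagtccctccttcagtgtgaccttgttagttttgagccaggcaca
In CAST/EiJ the control libraries held Col9a1 at 2.36, 5.06 and 2.31 CPM in females and 15.5, 3.8 and 11.3 CPM in males. The HFHS libraries held 3.36, 1.8 and 1.78 CPM in females and 1.37, 2.27 and 2.13 CPM in males. The highest values, 15.5 and 11.3, were those of CAST/EiJ male control 1 and 3, which had few Hox reads, and the diets overlapped. The log2 change was -1.44 with a standard error (SE) of 0.28 and an edgeR adjusted p of 0.0261. Without the 3 libraries with few Hox reads it was -0.73 with an SE of 0.28, and edgeR's adjusted p was 0.962. The call was also lost when any of 8 CAST/EiJ libraries was left out: male control 1 or 3, female control 2, male HFHS 1, 2 or 3, or female HFHS 2 or 3. The change then lay between -1.51 and -1.20. For Col9a1 the interaction of strain and diet had an edgeR adjusted p of 0.22.

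Col18a1, whose product releases endostatin and lies in vascular and epithelial basement membranes, had its highest CAST/EiJ values in the same libraries. In CAST/EiJ it ranged from 21.1 through a median of 39.5 to 104 CPM on control and from 18.0 through 25.1 to 35.6 CPM on HFHS. The values at 104 and 95.2 CPM belonged to CAST/EiJ male control 1 and 3. Its log2 change was -0.92 with an SE of 0.21 and missed the threshold, with an edgeR adjusted p of 0.0502; without the libraries with few Hox reads it was -0.42 with an SE of 0.22. In C57BL/6J it ran from 23.5 through 30.6 to 46.7 CPM on control and 20.9 through 25.5 to 35.3 on HFHS. In NZO/HlLtJ it ran from 17.7 through 30.2 to 46.9 and 20.9 through 30.9 to 56.1 CPM. The library NZO/HlLtJ male control 3, at 26.8 CPM, was not raised although it too had few Hox reads.

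Col7a1, the anchoring fibril collagen, had values of 18.5 and 22.5 CPM in CAST/EiJ male control 1 and 3, while the other CAST/EiJ libraries lay between 6.98 and 12.9 CPM. Col5a2, a fibrillar chain that joins type I fibrils, went the other way, with 11.3 and 8.7 CPM in these 2 libraries and 14.8 to 23.3 CPM in the others. Neither gene passed the test of diet in CAST/EiJ, with log2 changes of -0.51 and 0.55 and edgeR adjusted p-values of 0.0773 and 0.0821. DESeq2 called both and also Col18a1 and Col4a1, limma on the VST values called Col18a1 and Col5a2, and RLE size factors called Col18a1, each beside Col9a1. No member was called without the libraries with few Hox reads. Summed cerebellar neuron markers were at their highest of all libraries, 2210 CPM, in CAST/EiJ male control 3, and the meningeal, endothelial and mural sums were at their lowest there. The cerebellar neuron score, the mean log2 CPM of its 10 markers, was correlated within groups with Col7a1 (r = 0.64, rho = 0.74, adjusted permutation p 0.00029 for both), Col18a1 (r = 0.64, rho = 0.66, adjusted permutation p 0.0053 and 0.01) and Col5a2 (r = -0.63, rho = -0.67, adjusted permutation p 0.0038 and 0.0029). Without the 2 libraries farthest from the median score r was 0.62, 0.63 and -0.55. Without the libraries with few Hox reads r was 0.57, 0.68 and -0.58, with adjusted permutation p-values of 0.0043, 0.033 and 0.047. This score and the Hox score were among 4 tested after values were seen, in a family of 172 relations. For the Hox score no r over all libraries is given, since 3 stand apart. Over the other 33 libraries r was 0.82 for Col5a2 (adjusted permutation p 0.001), -0.51 for Col7a1 (0.071) and -0.45 for Col18a1 (0.17). In CAST/EiJ the cerebellar sum was 1020 ± 872 CPM on control and 283 ± 231 on HFHS (SD, n = 6), and the red blood cell markers summed to 1770 ± 721 and 274 ± 63.8 CPM. What part these cells have in the Col9a1, Col18a1, Col7a1 and Col5a2 values was not tested.

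**Figure D2:**
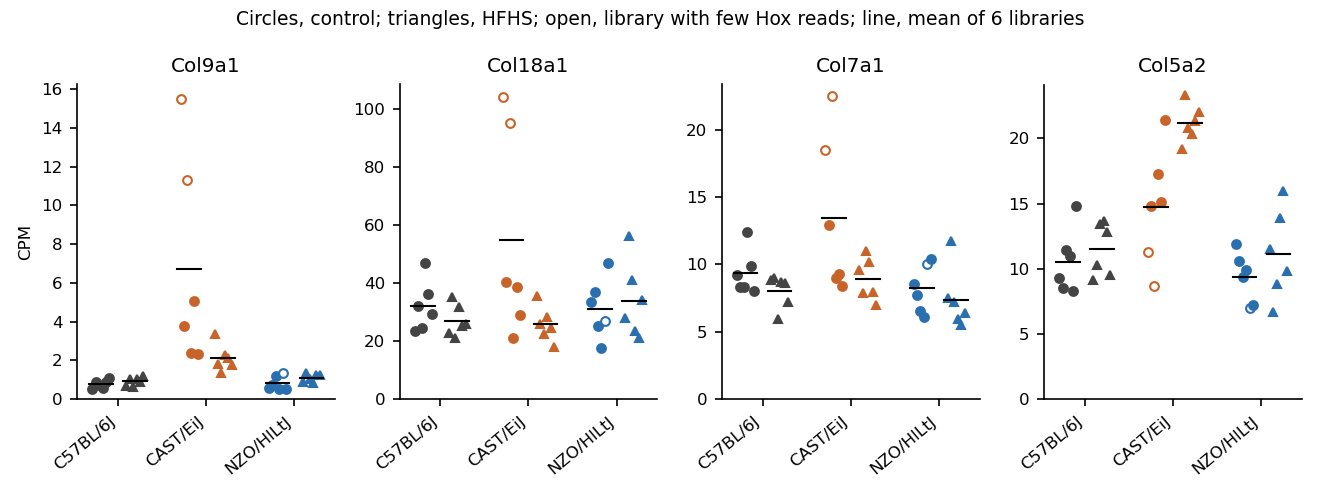
CPM of Col9a1, Col18a1, Col7a1 and Col5a2 in each library by strain and diet (6 libraries each; line, mean). Open symbols are the 3 libraries with few Hox reads; in CAST/EiJ control 2 of them are highest for Col9a1 (15.5 and 11.3 CPM), Col18a1 and Col7a1 and lowest for Col5a2.

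In the strains with no call, the members nearest to the threshold are given as values. In C57BL/6J, Col24a1, a fibrillar collagen, was at 14.2 CPM on HFHS and 11.3 on control (log2 0.36, SE 0.17), and Col4a5 was at 15.3 and 13.7 CPM (log2 0.17, SE 0.09). In NZO/HlLtJ, Col12a1, a FACIT of connective tissue, was at 26.0 and 19.2 CPM (log2 0.44, SE 0.14), and Col4a1 was at 69.1 and 80.3 CPM (log2 -0.21, SE 0.07). The edgeR adjusted p-values were 1.0 in C57BL/6J and 0.231 and 0.276 in NZO/HlLtJ. The meningeal fibroblast markers had positive log2 changes on HFHS in 25, 23 and 25 of 28 genes in C57BL/6J, CAST/EiJ and NZO/HlLtJ. Their medians were 0.24, 0.31 and 0.29, beside 0.002, -0.001 and 0.0 over all genes tested, and 0 of them were called in any strain. The lowest meningeal scores (mean log2 CPM of the markers) were those of CAST/EiJ male control 3 (1.49) and NZO/HlLtJ male control 3 (1.53). Both had few Hox reads, and changes of the markers without them are not given. More cells of a type and more RNA per cell cannot be told apart in bulk tissue.

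The best-known chains were not called for diet in any strain. Col1a1 ran from 12.8 through a median of 16.2 to 21.7 CPM on control and from 14.3 through 16.9 to 28.9 on HFHS in C57BL/6J. In CAST/EiJ the values were 12.1, 18.1 and 25.3 CPM on control and 14, 20.9 and 22.2 on HFHS, and in NZO/HlLtJ 13.5, 15.7 and 19.1 against 12.5, 15.7 and 28.2 CPM. Its diets overlapped in each strain. Col4a2 ran from 71.7 through 76.8 to 94.6 CPM on control and 75.0 through 83.6 to 91.8 on HFHS in C57BL/6J. It ran from 93.1 through 104 to 130 and 81.5 through 97.7 to 106 CPM in CAST/EiJ, and from 77.8 through 100 to 124 and 84.9 through 90.4 to 95.7 CPM in NZO/HlLtJ. These diets overlapped too.

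The other chains followed for reference likewise overlapped between diets in every strain. The lowest, median and highest CPM of Col1a2 on control were 30.6, 39.6 and 58.4 in C57BL/6J, 16, 23.1 and 35.2 in CAST/EiJ and 19.6, 36.6 and 47.4 in NZO/HlLtJ. On HFHS they were 38.8, 48.1 and 69.3, then 27.5, 29.9 and 33.9, then 29.9, 36.3 and 63.5 CPM. Col1a2 was thus lowest in CAST/EiJ on both diets by its median. Col3a1 on control was at 5.45, 7.89 and 15.1 CPM in C57BL/6J, 7.60, 12.7 and 21.7 in CAST/EiJ and 5.57, 8.92 and 9.76 in NZO/HlLtJ. On HFHS it was at 6.35, 9.26 and 17.9, then 13.6, 17.9 and 20.7, then 5.14, 8.36 and 26.6 CPM. Its medians were highest in CAST/EiJ, and 1 library of NZO/HlLtJ on HFHS, male 2, stood far above the others. Col4a1 on control was at 54.2, 59.5 and 75.4 CPM in C57BL/6J, 66.6, 72.3 and 87.2 in CAST/EiJ and 67.5, 83.0 and 87.2 in NZO/HlLtJ. On HFHS it was at 52.8, 65.3 and 67.9, then 49.1, 67.5 and 72.6, then 61.0, 70.4 and 73.7 CPM. The strains lay closer together on HFHS by these medians, and the interaction was not called. Col6a1 on control was at 11.5, 13.2 and 22.3 CPM in C57BL/6J, 16.3, 20.8 and 26.7 in CAST/EiJ and 13.9, 17.2 and 19.3 in NZO/HlLtJ. On HFHS it was at 12.2, 16.1 and 24.7, then 20.1, 24.9 and 27.5, then 15.3, 18.5 and 26.3 CPM. Col25a1 had control medians of 34.7, 56.1 and 39.7 CPM and HFHS medians of 41.0, 58.2 and 47.4 CPM in C57BL/6J, CAST/EiJ and NZO/HlLtJ, and its NZO/HlLtJ libraries were the most spread, from 26.8 to 72.7 CPM.

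Sex called 0 members against 0.0796% of all genes by edgeR, with 0 calls of members by DESeq2 and limma. An unadjusted p under 0.05 was found for 5 members and for 1040 of the 20108 genes tested. The 2 members with the smallest p were Col9a1, at 2.68 CPM in males and 1.48 in females, and Col23a1, at 9.47 and 8.16 CPM. Without the 3 libraries with few Hox reads, all male, Col9a1 was at 1.34 CPM in 15 male and 1.48 CPM in 18 female libraries, so the order of these means turned. The fitted log2 difference, which weights the groups equally, fell from 0.42 (SE 0.17) to 0.14 (SE 0.16).

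Strain separated the collagen genes far more often than diet, as it did genes at large. Between CAST/EiJ and C57BL/6J 24 of 43 members were called, where 52.3% of all genes were, and between NZO/HlLtJ and C57BL/6J 13 members were called against 24.0% of all genes. Between NZO/HlLtJ and CAST/EiJ 28 members were called against 50.1%. The calls went both ways. In CAST/EiJ 12 were higher and 12 lower than in C57BL/6J, beside 24.5% and 27.8% of all genes. In NZO/HlLtJ 7 were higher and 6 lower than in C57BL/6J, beside 11.7% and 12.3%. NZO/HlLtJ was higher in 14 and lower in 14 than CAST/EiJ, beside 27.3% and 22.8%. The members' shares, 55.8%, 30.2% and 65.1%, lay above those of all genes, and the difference was not tested. Without the libraries with few Hox reads 22 of the 24, 13 of the 13 and 25 of the 28 calls remained. The 3 comparisons share libraries, so each is given by its own values. By class, CAST/EiJ and C57BL/6J differed in 5 of 11 fibrillar, 4 of 8 basement membrane, 5 of 9 FACIT, 7 of 11 beaded filament and short chain and 3 of 4 transmembrane genes. NZO/HlLtJ and C57BL/6J differed in 4, 2, 1, 6 and 0 of these, and NZO/HlLtJ and CAST/EiJ in 9, 3, 6, 7 and 3.

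**Figure D3:**
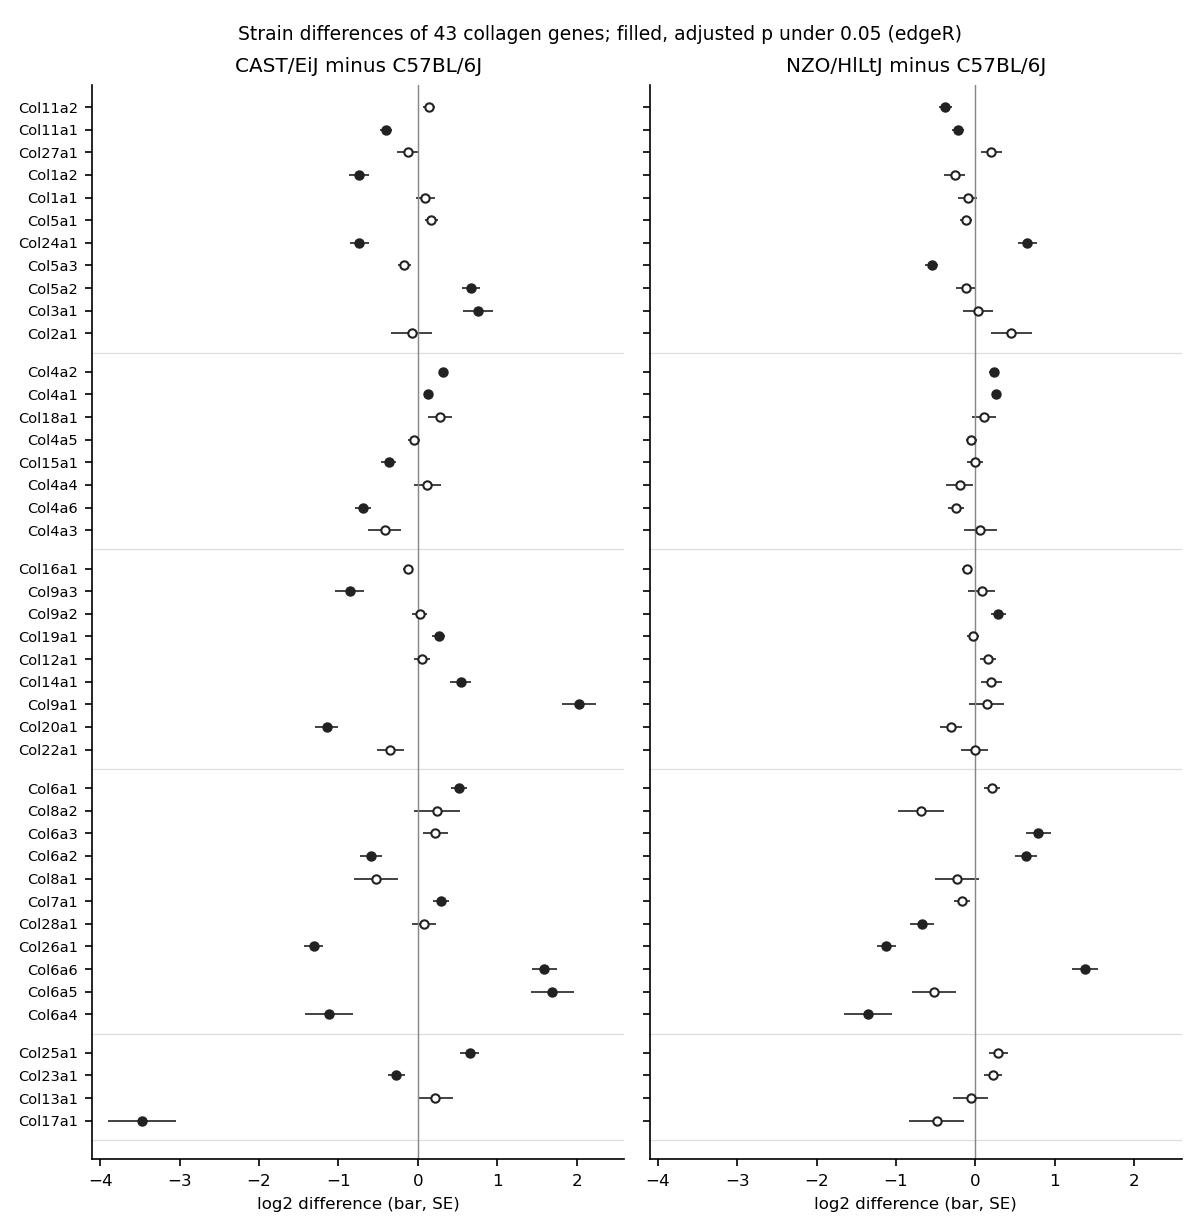
Log2 difference of each tested collagen gene from C57BL/6J in CAST/EiJ (left) and NZO/HlLtJ (right), with its SE, grouped as fibrillar, basement membrane, FACIT, beaded filament and short chain, and transmembrane from top to bottom. Filled points passed the test; changes go both ways in most classes, and Col17a1 is lowest in CAST/EiJ at -3.47.

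Among fibrillar collagens, 5 of 11 were called between CAST/EiJ and C57BL/6J, 2 higher and 3 lower. Col3a1, the type III chain of elastic connective tissue, was higher in CAST/EiJ, at 15.6 ± 4.42 CPM (SD, n = 12) against 9.39 ± 3.72. The log2 difference was 0.76 with an SE of 0.19 and an edgeR adjusted p of 0.00153. Col5a2, its neighbour in the genome, was at 18.0 ± 4.59 against 11 ± 2.20 CPM (log2 0.67, SE 0.11, edgeR adjusted p 1.29e-05). Col1a2, a chain of type I, was lower, at 27.4 ± 5.68 against 45.9 ± 11.1 CPM (log2 -0.74, SE 0.13, edgeR adjusted p 1.44e-05). Col1a1, the other chain of type I, was at 18.9 ± 3.89 and 17.9 ± 4.57 CPM and did not pass (log2 0.09, SE 0.12). Libraries of the strains overlapped for all of these.

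Col24a1, a minor fibrillar collagen, was low in CAST/EiJ and high in NZO/HlLtJ. It ran from 2.92 to 10.2 CPM in CAST/EiJ, 7.08 to 16 in C57BL/6J and 14.4 to 27.4 in NZO/HlLtJ. NZO/HlLtJ and CAST/EiJ libraries did not overlap (log2 1.39, SE 0.12, edgeR adjusted p 6.05e-11). Against C57BL/6J the log2 difference was -0.74 in CAST/EiJ and 0.65 in NZO/HlLtJ. Col11a1, a minor fibrillar chain, had log2 differences from C57BL/6J of -0.40 (SE 0.08) in CAST/EiJ and -0.22 (SE 0.08) in NZO/HlLtJ, the latter lost in 15 of the alternatives. In NZO/HlLtJ, Col5a3 was at 8.58 ± 1.49 against 12.5 ± 1.35 CPM (log2 -0.55, SE 0.08, edgeR adjusted p 5.23e-06) and Col11a2 had a log2 difference of -0.38 (SE 0.08).

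Col3a1 carries the region of its start in RefSeq at chr1:45311288-45311537 (GRCm38.p6, + strand, the 250 bases before it). It is shown because this chain and Col1a1 moved together between libraries, as given below; capitals mark a TATA box.
Col3a1: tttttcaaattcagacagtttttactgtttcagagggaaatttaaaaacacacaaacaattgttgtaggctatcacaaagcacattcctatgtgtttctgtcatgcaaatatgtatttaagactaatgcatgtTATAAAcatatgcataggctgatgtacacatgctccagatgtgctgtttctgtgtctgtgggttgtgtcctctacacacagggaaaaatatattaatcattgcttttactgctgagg
The start regions of Col1a1 and Col5a2 are not shown. In 35 of the 44 members the RefSeq table gave 38 such regions of 250 bases. A GC box (GGGCGG on either strand) stood in 57.9% of them and in 32.7% of all 32851 regions of the table. A CCAAT box (CCAAT) stood in 34.2% and 33.8%, and a TATA box (TATAAA) in 13.2% and 12.4%. These are matches of letters on either strand, not measured sites.

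Among basement membrane collagens the main pair was higher outside C57BL/6J. Col4a1 was at 62.3 ± 6.32 CPM in C57BL/6J, 68.5 ± 10.3 in CAST/EiJ and 74.7 ± 8.53 in NZO/HlLtJ. The log2 difference from C57BL/6J was 0.13 (SE 0.05, edgeR adjusted p 0.0394) in CAST/EiJ and 0.26 (SE 0.05, edgeR adjusted p 0.000378) in NZO/HlLtJ. Col4a2, which starts head to head with Col4a1 on chromosome 8 and overlaps it by 22 bases, was at 80.9 ± 7.15, 101 ± 12.8 and 95.2 ± 12.2 CPM, with log2 differences of 0.32 (SE 0.06) and 0.23 (SE 0.06). Both chains overlapped between strains in single libraries. Col4a6, a chain of smooth muscle and epithelial basement membranes, was lower in CAST/EiJ, at 2.77 ± 0.582 against 4.49 ± 0.770 CPM in C57BL/6J (log2 -0.69, SE 0.10, edgeR adjusted p 1.15e-06). Col15a1, a vascular relative of Col18a1, was at 9.35 ± 1.38 against 12.1 ± 1.30 CPM (log2 -0.37, SE 0.10). Col18a1, Col4a3, Col4a4 and Col4a5 passed in no strain comparison.

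The largest strain differences lay in genes of low level. Col17a1, the collagen of the hemidesmosome that ties epithelium to its basement membrane, was at 0.435 to 2.51 CPM in C57BL/6J and 0.0458 to 0.309 CPM in CAST/EiJ, without overlap. The log2 difference was -3.47 with an SE of 0.43 and an edgeR adjusted p of 7.26e-08. In NZO/HlLtJ Col17a1 spread from 0.0337 to 3.11 CPM and overlapped both other strains. Col9a1 was at 0.535 to 1.19 CPM in C57BL/6J and 1.37 to 15.5 CPM in CAST/EiJ, again apart (log2 2.03, SE 0.21, edgeR adjusted p 2.97e-09).

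Col6a4, Col6a5 and Col6a6 are chains that can take the place of the third type VI chain, and their genes all lie on chromosome 9, between 105687809 and 106096783 (GRCm38). Col6a6 was higher than in C57BL/6J in CAST/EiJ (log2 1.59, SE 0.16, edgeR adjusted p 1.45e-09) and in NZO/HlLtJ (log2 1.38, SE 0.16, edgeR adjusted p 7.52e-08). It ran from 0.644 to 1.65 CPM in C57BL/6J, 2.19 to 4.41 in CAST/EiJ and 1.62 to 4.44 in NZO/HlLtJ, and CAST/EiJ and C57BL/6J did not overlap. Col6a5 was at 1.96 to 12 CPM in CAST/EiJ, apart from 0.451 to 1.76 in C57BL/6J (log2 1.69, SE 0.27) and from 0.175 to 1.41 in NZO/HlLtJ. Col6a4 was lower than in C57BL/6J in both strains, with log2 differences of -1.12 (SE 0.30) and -1.35 (SE 0.30), and its libraries overlapped. These 3 genes did not share a direction. Of the main type VI chains, 2 of 3 were called in NZO/HlLtJ, where Col6a1 was not (log2 0.21, SE 0.10). Against C57BL/6J, Col6a3 was at 31.0 ± 9.35 and 17.7 ± 2.82 CPM (log2 0.79, SE 0.16, edgeR adjusted p 0.000244) and Col6a2 at 18.3 ± 3.81 and 12 ± 3.74 CPM (log2 0.64, SE 0.14, edgeR adjusted p 0.000647). Col9a2, of type IX, was higher there (log2 0.29, SE 0.09) and Col28a1 lower (log2 -0.67, SE 0.15).

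Col26a1 was lower in both strains than in C57BL/6J and apart from it in both, at 3.42 to 5.31 CPM in C57BL/6J, 0.826 to 2.82 in CAST/EiJ and 1.5 to 2.83 in NZO/HlLtJ. Its log2 differences were -1.31 (SE 0.12, edgeR adjusted p 1.95e-10) and -1.12 (SE 0.12, edgeR adjusted p 1.43e-08). Col20a1, a FACIT, was lower in CAST/EiJ, at 1.10 ± 0.286 against 2.41 ± 0.589 CPM (log2 -1.15, SE 0.15, edgeR adjusted p 1.36e-07), and Col9a3 at 14.5 ± 4.10 against 26.7 ± 8.75 CPM (log2 -0.86, SE 0.18). Exons of Col20a1 and Col9a3 overlap those of other genes of the table, 9230112E08Rik and Tcfl5, so reads may be shared. Col25a1 was higher in CAST/EiJ, at 57 ± 6.02 against 36.6 ± 7.46 CPM (log2 0.65, SE 0.12, edgeR adjusted p 6.38e-05). Its 6 CAST/EiJ libraries on HFHS ran from 54.9 to 65.8 CPM, above all 12 of C57BL/6J, which ended at 45.6. On control CAST/EiJ male 2 was at 41.7 CPM, so the libraries of these strains overlapped.

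NZO/HlLtJ exceeded CAST/EiJ most in Col17a1 (log2 2.98, SE 0.43), Col24a1 (1.39, SE 0.12), Col6a2 (1.23, SE 0.14), Col9a3 (0.95, SE 0.18), Col20a1 (0.85, SE 0.15) and Col6a3 (0.58, SE 0.15). It lay lowest below CAST/EiJ in Col6a5 (-2.21, SE 0.28), Col9a1 (-1.89, SE 0.21), Col8a2 (-0.92, SE 0.29), Col5a2 (-0.80, SE 0.11), Col28a1 (-0.74, SE 0.15) and Col3a1 (-0.73, SE 0.19). Without the libraries with few Hox reads Col6a3 was no longer called. The members called in none of the strain comparisons were Col1a1, Col2a1, Col4a3, Col4a4, Col4a5, Col8a1, Col12a1, Col13a1, Col16a1, Col18a1 and Col22a1.

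Ratios of chains that make up a common molecule or fibril differed between strains, mostly where CAST/EiJ was compared. In type VI, whose monomer holds Col6a1 and Col6a2 chains together, Col6a1 was higher in CAST/EiJ than in C57BL/6J (log2 0.52, SE 0.10) and Col6a2 lower (-0.59, SE 0.14). The ratio of Col6a1 to Col6a2 in CPM was 1.36 ± 0.204 (SD, n = 12) in C57BL/6J, 3.01 ± 0.594 in CAST/EiJ and 1.01 ± 0.139 in NZO/HlLtJ. CAST/EiJ libraries, at 2.32 to 4.26, lay above all others, which ended at 1.66. The mean log2 ratio differed by 1.14 from C57BL/6J (two-sided permutation test, Benjamini-Hochberg adjusted p 4.9e-05 over 42 comparisons of 14 pairs in 3 strain contrasts).

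For type I, the ratio of Col1a1 to Col1a2 was 0.390 ± 0.0414 in C57BL/6J, 0.699 ± 0.0989 in CAST/EiJ and 0.450 ± 0.0944 in NZO/HlLtJ. CAST/EiJ, at 0.449 to 0.814, lay apart from C57BL/6J, at 0.313 to 0.445 (permutation test, adjusted p 3.5e-05, from 1e-05, the smallest that 100000 permutations can give). The ratio of Col1a2 to Col3a1 was 5.16 ± 0.977 in C57BL/6J, 1.81 ± 0.310 in CAST/EiJ and 4.33 ± 1.17 in NZO/HlLtJ, and CAST/EiJ was apart from both other strains. The Col4a1 to Col4a2 ratio varied less, at 0.770 ± 0.0525, 0.678 ± 0.0691 and 0.788 ± 0.0600, yet CAST/EiJ and C57BL/6J differed by -0.19 in log2 (permutation test, adjusted p 0.0019) with overlapping libraries. In all, 30 of the 42 comparisons passed, most of them with CAST/EiJ. Between NZO/HlLtJ and C57BL/6J the only pairs that passed the permutation test were Col8a1 to Col8a2 (adjusted p 9.3e-05), Col6a1 to Col6a2 (0.00022), Col4a5 to Col4a6 (0.02) and Col6a1 to Col6a3 (0.024). There, Col1a1 to Col1a2 (0.07), Col1a2 to Col3a1 (0.087) and Col4a1 to Col4a2 (0.51) did not pass. Ratios of other gene pairs were not tested, so whether this count is particular to collagen chains is not known. Of all single genes, 24.0%, 52.3% and 50.1% were called in NZO/HlLtJ against C57BL/6J, CAST/EiJ against C57BL/6J and NZO/HlLtJ against CAST/EiJ. The ratio test was added after the log2 changes of the single genes were known. A ratio in CPM is not a ratio of molecules, as the genes differ in length, but its strain difference does not depend on length. Whether reads were counted on each strain's own genome is not given in the sources used here.

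**Figure D4:**
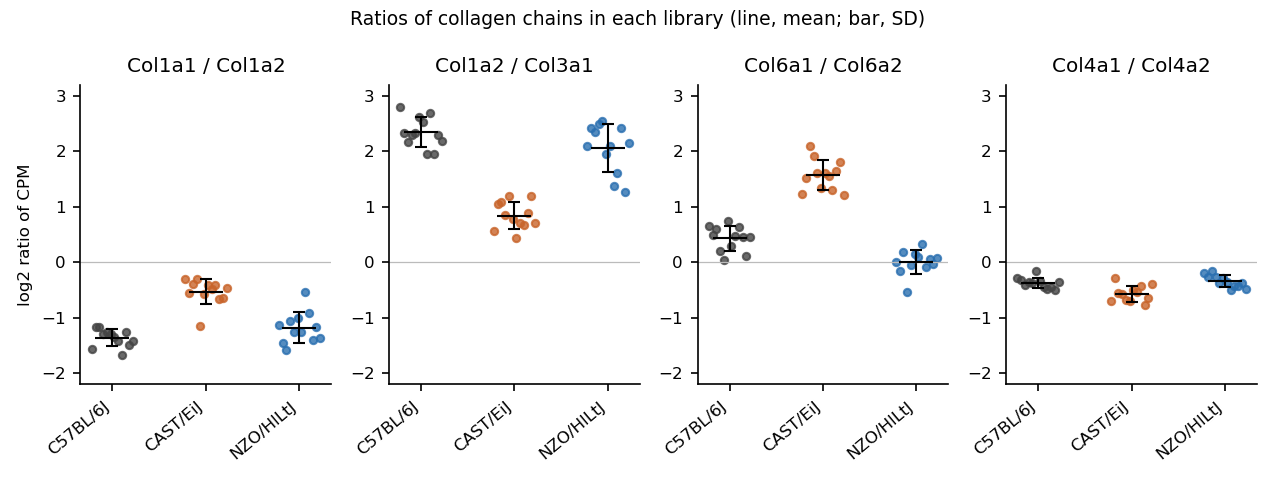
Log2 ratio of CPM of paired chains in each library, by strain (line, mean; bar, SD, n = 12). CAST/EiJ differs from C57BL/6J in all 4 pairs, least in Col4a1 to Col4a2 (-0.19) and without overlap in Col1a1 to Col1a2, Col1a2 to Col3a1 and Col6a1 to Col6a2.

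Libraries of 1 group also differed among themselves. For each member the log2 CPM in 36 libraries, minus its group mean, was set against the score of a marker list, the mean log2 CPM of its genes treated in the same way. With the meningeal fibroblast score, 12 of 43 members were correlated (permutation test within groups, Benjamini-Hochberg adjusted p under 0.05 over 143 relations), 10 positively. Col1a1 had r = 0.81 (rho = 0.85, adjusted permutation p 0.00048 for both), and r = 0.80 without the 2 libraries farthest from the median score. Col1a2 had r = 0.81 (rho = 0.80, adjusted permutation p 0.0014 and 0.0017; r = 0.82 without these libraries). Col3a1 had r = 0.80 (rho = 0.83, adjusted permutation p 0.002 and 0.0014; r = 0.78). Col6a2 and Col6a1, the type VI chains, had r = 0.72 (rho = 0.72) and 0.63 (rho = 0.72), with adjusted permutation p-values of 0.0036 and 0.002 for r and 0.0037 and 0.0011 for rho, and r = 0.73 and 0.67 without the 2 libraries. Col12a1 (r = 0.71, rho = 0.66), Col4a5 (0.64, 0.65), Col13a1 (0.51, 0.57), Col4a6 (0.46, 0.47) and Col22a1 (0.39, 0.47) followed, with adjusted permutation p-values from 0.0025 to 0.048 and r of 0.72, 0.65, 0.58, 0.48 and 0.45 without the 2 libraries. Col6a5 (r = -0.62, rho = -0.54, adjusted permutation p 0.029 and 0.05) and Col6a4 (r = -0.55, rho = -0.51, adjusted permutation p 0.037 and 0.057) were negative, with r = -0.53 and -0.47 without the 2 libraries. Without the libraries with few Hox reads the adjusted permutation p was 0.13 for Col6a5, 0.18 for Col6a4 and 0.052 for Col4a6. Genes and scores come from the same libraries and share their depth. Only collagen genes were set against the scores, here and below. Whether the counts of correlated members differ from the share of all genes was not tested.

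The main basement membrane chains did not follow these scores. Col4a1 had r = 0.01 with the meningeal fibroblast score, 0.11 with the endothelial score and 0.26 with the mural score, and Col4a2 had -0.25, 0.06 and 0.31. None passed, with adjusted permutation p-values from 0.19 to 0.99 over both coefficients. The endothelial score was correlated with 8 members, 6 positively, led by Col5a2 (r = 0.69, rho = 0.67) and Col6a2 (r = 0.64, rho = 0.67), with adjusted permutation p-values of 0.0029 and 0.00082 for r and 0.0037 and 0.0023 for rho, and r = 0.63 and 0.58 without the 2 extreme libraries. Of the 8, 4 passed without the libraries with few Hox reads: Col5a2, Col6a1, Col6a2 and Col6a5, the last negative. The mural score was correlated with Col1a1 (r = 0.72, rho = 0.74), Col3a1 (0.69, 0.70), Col6a2 (0.65, 0.68) and Col11a2 (0.50, 0.60), all positively. Adjusted permutation p-values ran from 0.00082 to 0.027, and r was 0.72, 0.68, 0.62 and 0.55 without the 2 extreme libraries. All 4 also passed without the libraries with few Hox reads.

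A second pattern was seen with choroid plexus markers, tested after values were seen in a family of 172 relations of 4 added scores. Col8a1 and Col8a2, the short chains of type VIII known from the membrane under the corneal endothelium and from vessels, followed that score, with r = 0.93 (rho = 0.93) and 0.86 (rho = 0.91). Col9a3 had r = 0.89 (rho = 0.89) and Col4a3 0.73 (rho = 0.78), each of the 4 with an adjusted permutation p of 0.00029 for both coefficients. Without the 2 libraries farthest from the median score, r was 0.93, 0.86, 0.88 and 0.77 in that order, and without the libraries with few Hox reads 0.92, 0.90, 0.87 and 0.72. Col4a4, which starts 72 bases from Col4a3 on the opposite strand, had r = 0.67 (rho = 0.67, adjusted permutation p 0.0038 and 0.0099) but an adjusted p of 0.079 without the libraries with few Hox reads.
Because Col8a1 followed this score most closely, the 250 bases before its start are shown (RefSeq, GRCm38.p6, chr16:57754738-57754987, - strand); capitals mark 4 GC boxes, written here as CCGCCC.
Col8a1: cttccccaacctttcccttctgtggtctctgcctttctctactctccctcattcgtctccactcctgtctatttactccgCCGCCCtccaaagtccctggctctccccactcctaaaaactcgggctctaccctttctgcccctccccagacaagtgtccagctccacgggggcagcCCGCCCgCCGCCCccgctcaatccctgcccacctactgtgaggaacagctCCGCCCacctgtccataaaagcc
Col8a1 itself ran from 2.58 CPM in CAST/EiJ male control 3, which also had the lowest summed choroid plexus markers (24.2 CPM), to 28.8 CPM in NZO/HlLtJ female control 2, which had the highest (3110 CPM).

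**Figure D5:**
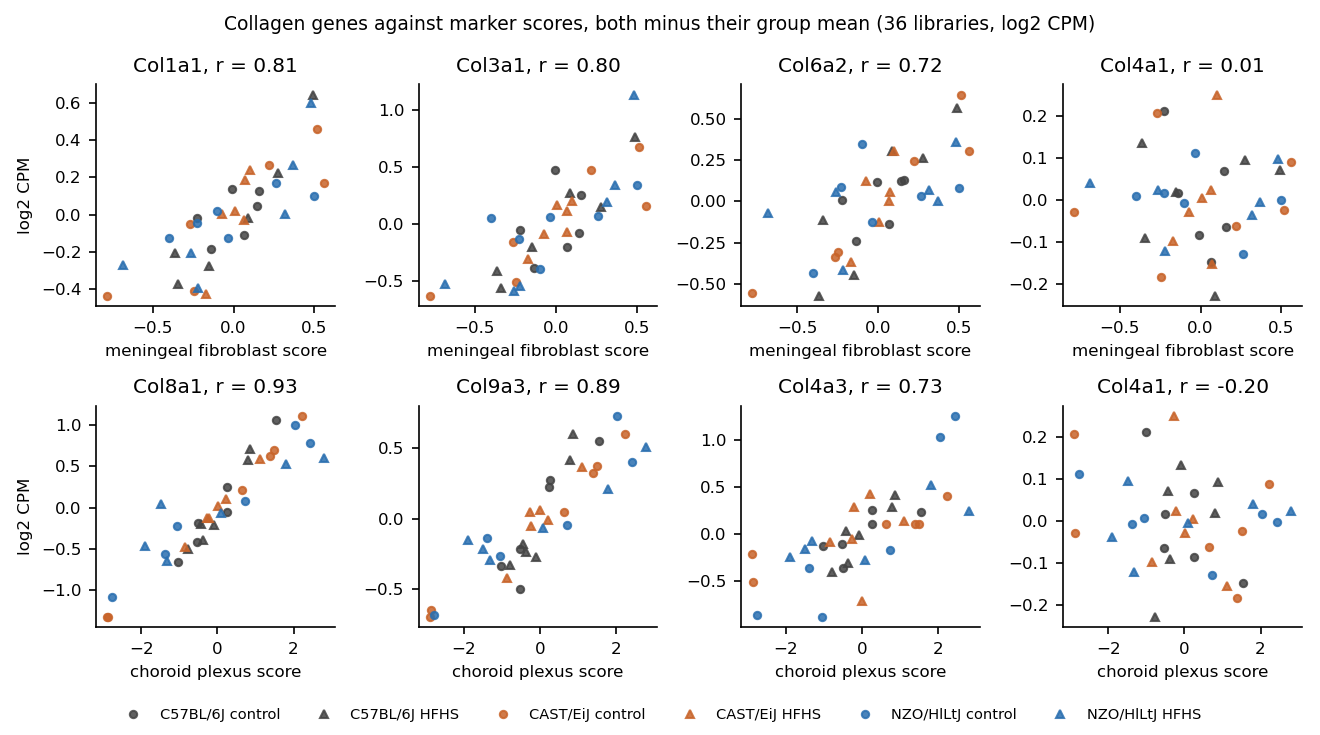
Log2 CPM of collagen genes against the meningeal fibroblast score (top) and the choroid plexus score (bottom), all as differences from the group mean, in 36 libraries coloured by strain with circles for control and triangles for HFHS. Col1a1, Col3a1 and Col6a2 rise with the first score (r = 0.81, 0.80 and 0.72) and Col8a1, Col9a3 and Col4a3 with the second (0.93, 0.89 and 0.73), while Col4a1 follows neither.

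Between libraries of a group, 8 of 14 pairs of partner chains were correlated, all positively. Pairs of other genes were not tested, so no share stands beside this count. Col1a1 and Col3a1 had r = 0.91 (rho = 0.88), Col8a1 and Col8a2 0.85 (rho = 0.91), Col4a3 and Col4a4 0.83 (rho = 0.67), and Col1a1 and Col1a2 0.75 (rho = 0.78). Col6a1 and Col6a2 had 0.71 (rho = 0.70), Col1a2 and Col3a1 0.70 (rho = 0.71), Col4a1 and Col4a2 0.67 (rho = 0.67), and Col4a5 and Col4a6 0.55 (rho = 0.55). Their adjusted permutation p-values ran from 0.00048 to 0.01 for r and to 0.015 for rho, and r lay between 0.61 and 0.91 without the 2 extreme libraries. Col6a1 and Col6a2, whose ratio differed between strains, thus varied together within groups. The pairs that did not pass were Col5a1 with Col5a2 (r = -0.31), Col6a1 with Col6a3 (0.14), Col9a1 with Col9a2 (0.38) and Col9a3 (-0.15), Col11a1 with Col11a2 (0.25, and 0.61 without the libraries with few Hox reads) and Col15a1 with Col18a1 (0.28).

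The genes that process and bind collagen were called between strains at shares set here beside those of all genes, 24.0% (NZO/HlLtJ against C57BL/6J), 52.3% (CAST/EiJ against C57BL/6J) and 50.1% (NZO/HlLtJ against CAST/EiJ). Of 35 genes for collagen synthesis and crosslinking, 0 were called for diet in any strain. There were 12 called between NZO/HlLtJ and C57BL/6J (5 higher), 22 between CAST/EiJ and C57BL/6J (8 higher) and 18 between NZO/HlLtJ and CAST/EiJ (11 higher). These are 34.3%, 62.9% and 51.4% of the list, and whether they differ from all genes was not tested. Pxdn, the enzyme that crosslinks type IV collagen, was higher in NZO/HlLtJ than in C57BL/6J (log2 0.93, SE 0.06, edgeR adjusted p 1.21e-13) and CAST/EiJ (1.18, SE 0.06, edgeR adjusted p 1.55e-16). Colgalt2, a collagen galactosyltransferase, was higher than in C57BL/6J there (0.50, SE 0.07), while Pcolce2 and Pcolce, enhancers of procollagen cleavage, were lower (-1.03, SE 0.10 and -0.68, SE 0.20). In CAST/EiJ, Loxl2, a lysyl oxidase, and Tll2, a procollagen protease, were lower than in C57BL/6J (-0.85, SE 0.16 and -0.96, SE 0.18), and P4ha3, a prolyl hydroxylase, and Adamts3 were higher (0.61, SE 0.13 and 0.51, SE 0.07). Creb3l1, a factor that drives collagen secretion, was higher in NZO/HlLtJ than in CAST/EiJ (1.01, SE 0.16).

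Among 11 collagen receptors, 3, 6 and 6 were called in NZO/HlLtJ against C57BL/6J, CAST/EiJ against C57BL/6J and NZO/HlLtJ against CAST/EiJ, with 1, 2 and 3 higher. These are 27.3%, 54.5% and 54.5% of the list, near the 24.0%, 52.3% and 50.1% of all genes. Itga2, a collagen-binding integrin chain, was higher in NZO/HlLtJ (log2 2.73, SE 0.20, edgeR adjusted p 5.01e-12) and in CAST/EiJ (0.69, SE 0.22) than in C57BL/6J. Lair1, an inhibitory collagen receptor of immune cells, was lower in CAST/EiJ (-1.42, SE 0.08, edgeR adjusted p 7.87e-15), as was the receptor kinase Ddr2 (-0.58, SE 0.13). Of 11 tested genes for breakdown, 4, 7 and 3 were called, with 2, 2 and 1 higher, which are 36.4%, 63.6% and 27.3% of them. The collagenase Mmp14 was lower and the gelatinase Mmp2 higher in CAST/EiJ than in C57BL/6J (-0.68, SE 0.07 and 0.99, SE 0.19).

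Of 22 matrix partners, 5, 11 and 10 were called between strains, with 2, 2 and 8 higher. These are 22.7%, 50% and 45.5% of the list, slightly below the 24.0%, 52.3% and 50.1% of all genes. Lama2, the laminin chain that type IV collagen joins around vessels and muscle, was lower in CAST/EiJ than in C57BL/6J (log2 -1.47, SE 0.06, edgeR adjusted p 2.37e-18) and higher in NZO/HlLtJ (0.45, SE 0.06). In CAST/EiJ it was also lower on HFHS (-0.41, SE 0.09, edgeR adjusted p 0.0354), the only matrix partner called for diet, where 0.343% of all genes were called. This call rests on all libraries, among them CAST/EiJ male control 1 and 3, which had few Hox reads. The change of Lama2 without the libraries with few Hox reads is not given, so whether the call holds without them is not known. No collagen gene was called for diet in CAST/EiJ without them. Agrn, the basement membrane proteoglycan agrin, was higher than in C57BL/6J in CAST/EiJ (0.47, SE 0.05) and NZO/HlLtJ (0.29, SE 0.05).

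The marker lists were called between strains at shares on both sides of those of all genes, 24.0% for NZO/HlLtJ and 52.3% for CAST/EiJ against C57BL/6J. Of 28 meningeal fibroblast markers, 11 were called in NZO/HlLtJ against C57BL/6J, all lower, and 12 in CAST/EiJ, 9 of them lower, with medians of -0.39 and -0.22 (39.3% and 42.9% of the list). Of 20 endothelial markers 8 (5 higher) and 14 (3 higher) were called, with medians of 0.03 and -0.21 (40% and 70%). Of 16 mural markers, 5 (1 higher) and 8 (0 higher) were called, with medians of -0.11 and -0.29 (31.2% and 50%). The mural sum was 441 ± 30.3 CPM in C57BL/6J on control (SD, n = 6), 287 ± 44.3 in CAST/EiJ and 418 ± 31.2 in NZO/HlLtJ. Of 10 choroid plexus markers 0 were called in NZO/HlLtJ or CAST/EiJ against C57BL/6J. Their log2 differences were negative in 10 and 9 genes, with medians of -0.68 and -0.45. Col9a3 and Col8a2, called between some strains, followed the choroid plexus score within groups. The part of these cells in the strain differences of the collagen genes was not tested. Fits with a score as a covariate cannot measure it, since markers in the scores themselves differed between strains. With the meningeal score in the fit, 21 of the 24 calls between CAST/EiJ and C57BL/6J and 11 of the 13 between NZO/HlLtJ and C57BL/6J remained. Between NZO/HlLtJ and CAST/EiJ 27 of the 28 remained. With the endothelial score 19, 13 and 20 remained in the same order, and the mural score was not fitted.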

How the data were processed

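The authors' deposited expected counts (estimated counts that need not be whole) were rounded and tested with edgeR 4.0.16 (R 4.3.3, limma 3.58.1), and log2 values that the authors deposited after a variance-stabilising transformation (VST) served for alternatives. The submitters' processing notes name GRCm38 and DESeq2, with no version or role; not given in the sources used here are the aligner, the counter, the strand setting and any use of a strain's own genome. Genes were kept by filterByExpr (minimum count 10, minimum total 15) and scaled with TMM factors (a trimmed mean of log ratios). A mean was fitted for each of 12 groups over 36 libraries, with 24 residual degrees of freedom. Strain contrasts average diet and sex. The SE is the log2 change over the root of F. CPM are TMM-scaled, and log2 CPM have a prior count of 2. Correlations and ratios used 100000 permutations, with a smallest p of 1e-05. Coordinates and exon lengths come from gencode on GRCm38. All 8 fixed members, all called members (or the 6 largest rises and falls), the 2 members of smallest p where none was called, and the 2 largest rises and falls of each pathway list could be named. The members, gene lists and rules were chosen with earlier results of these data known. Scripts were tested on simulated data. DESeq2 1.42.0, limma on the VST values, other scaling and filters, scores as covariates and left-out libraries were the alternatives, and edgeR's robust option was added after the data had been seen.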

Additional observations from a re-analysis of the deposited data

Results flagged for a closer look

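For single genes and class sums, 84 sets of 6 values (a strain on a diet) were examined, and 7 held a library far from the other 5. Chance alone gives about 1 in 20, and the sets are not independent, since they share libraries and the sums contain the genes. In NZO/HlLtJ on HFHS, male 2 had Col1a1 at 28.2 CPM against 12.5 to 18.2, Col3a1 at 26.6 CPM against 5.14 to 9.42, and a sum of all collagen genes of 895 CPM against 756 to 804. In C57BL/6J on HFHS, male 2 had Col3a1 at 17.9 CPM against 6.35 to 10.3. In CAST/EiJ on HFHS, female 1 had Col1a1 at 14 CPM against 20.3 to 22.2. The FACIT sum of CAST/EiJ male control 3, which had few Hox reads, was 97.6 CPM against 122 to 130. The sum of beaded filament and short chain collagens of NZO/HlLtJ female control 2, which had the highest choroid plexus sum, was 136 CPM against 78.3 to 95.9.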

How the results depend on the processing

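The 1 member called for diet in CAST/EiJ became 5 with DESeq2 (Col18a1, Col4a1, Col5a2 and Col7a1 beside Col9a1), 2 with other size factors (RLE), 3 with limma on the VST values and 6 with the endothelial score as a covariate. It became 0 without the libraries with few Hox reads, with a Hox or meningeal score as a covariate, and with only the strain compared in the fit. Leaving out a library gave 0 to 8: leaving out CAST/EiJ male control 2 gave 8, leaving out NZO/HlLtJ male control 3 gave 3, 8 other libraries gave 2, and 0 without the 8 CAST/EiJ libraries named above. The interaction went from 0 to 1 with DESeq2, with the endothelial covariate and without CAST/EiJ male control 2 (range 0 to 1). The 8 correlations with the endothelial score became 4 without the libraries with few Hox reads and 4 without the 2 extreme libraries. Leaving out a library gave 12 to 17 calls between NZO/HlLtJ and C57BL/6J, 23 to 26 between CAST/EiJ and C57BL/6J, 25 to 29 between NZO/HlLtJ and CAST/EiJ, and 0 to 0 for sex and for diet in C57BL/6J and NZO/HlLtJ. It gave 8 to 12 meningeal, 5 to 11 endothelial (5 without CAST/EiJ male control 3) and 3 to 7 mural correlations (7 without CAST/EiJ male control 1 or 2) and 8 to 9 pairs. For single named members, 1311 values kept direction and call with a library left out and 21 lost the call; under other settings 360 kept and 10 lost it, and none changed sign. The cause was not tested. No paired analysis was possible because the labels give no replicate numbers. Genes of few counts, such as Col17a1 and Col6a4, have the widest errors.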
